A study of Saccharomyces cerevisiae with 14 samples.

Results

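The loss of the transcription factor gene NSF1 was examined at the first sampling point of a wine fermentation, 24 h after inoculation of Riesling grape must. The comparison rests on the 4 arrays labelled 24 h, 2 of M2 nsf1∆ and 2 of M2, out of 14 arrays in the series, and it covers every probe set paired with 1 S. cerevisiae gene, which are 5498 of the 10928 probe sets of the table and read 5449 genes. M2, labelled wild type, is an industrial wine yeast and a MATa/MATα diploid, and M2 nsf1∆ is the same strain with both copies of NSF1 replaced by the kanMX4 resistance cassette. Both strains were pre-grown in rich medium and fermented the same sterile must, without shaking and with no further treatment, as biological replicates. How many independent clones of the deletion were used is not stated in the sources, and the loss of NSF1 cannot be told apart from the presence of the cassette. Later samplings of the same design, when 20% and 85% of the glucose had been fermented, set the 24 h values in place. They hold 2 and 3 arrays per strain, and the labels do not say which arrays of different stages came from the same flask.

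NSF1 encodes a putative transcription factor with zinc fingers, known for its part in growth on carbon sources that cannot be fermented and in the response to salt. The gene is annotated as USV1, systematic name YPL230W, on chromosome XVI. At the start of a wine fermentation yeast cells divide, build ribosomes, take up sugar and reduce sulfate to sulfide for the synthesis of methionine and cysteine. The study placed NSF1 among the regulators of sulfur metabolism in fermenting wine yeast. The comparison at 24 h asks how the transcripts of the strains differed at the earliest stage sampled.

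NSF1, the deleted gene, gave RMA log2 intensities of 9.10 and 8.92 in the 2 M2 arrays of 24 h and of 2.95 and 3.58 in the 2 arrays of M2 nsf1∆. Each array gives 1 such value per probe set, on a log2 scale, where a difference of 1 is a 2-fold change. The 2 mutant values lay below the 95th percentile of the probe sets for S. pombe genes, which read no gene of this yeast and ranged from 3.65 to 3.72 in the 4 arrays at that percentile. NSF1 was therefore not above background in the mutant, and the M2 level was at least 40.7-fold higher than that bound. The fitted difference was -5.75 (SE 0.55, limma, adjusted p = 0.000525, n = 2 against 2). M2 carried more NSF1 transcript at the later stages, with 10.71 and 9.98 at 20% and 13.12, 12.90 and 13.19 at 85%. The mutant arrays read 3.52 and 4.28 at 20% and 3.63, 3.95 and 5.90 at 85%, so that replicate 3 of the mutant at 85% stood above the others of its group.

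The 4 arrays of 24 h were alike in overall level, with medians of the S. cerevisiae probe sets between 8.87 and 8.91, and the 3′ probe set of the actin gene ACT1 exceeded its 5′ probe set by 0.43 to 0.74. They were not alike in their distance from the next stage. Replicate 2 of M2 nsf1∆ had a Pearson correlation of 0.952 to 0.961 with the 4 arrays of 20%, replicate 1 of 0.932 to 0.951, and both M2 arrays of 0.925 to 0.942, each over the 5498 probe sets. The correlation of replicate 2 with the M2 arrays of 24 h was 0.985 and 0.982, while replicate 1 reached 0.994 and 0.993, as high as the M2 arrays with each other (0.994). The M2 arrays of 24 h correlated at 0.941 to 0.942 with the mutant arrays of 20% and at 0.925 to 0.935 with the M2 arrays of 20%. Replicate 2 of the mutant thus stands apart from the other 3 arrays, and results are given with and without it below.

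**Figure D1:**
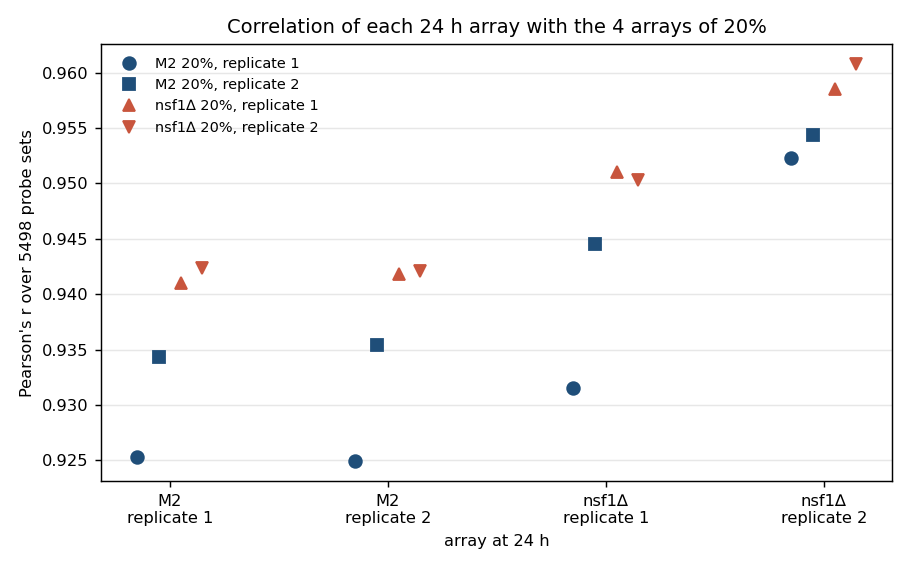
Pearson's r (vertical axis) of each of the 4 arrays of 24 h (horizontal axis) with the 4 arrays of 20% (blue for the M2 arrays of 20%, red for those of M2 nsf1∆), over all S. cerevisiae probe sets. Replicate 2 of M2 nsf1∆ had the highest values (0.952 to 0.961), and both M2 arrays the lowest (0.925 to 0.942).

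The same position showed in the genes that move with the stage. Genes that differed at least 2-fold in M2 between 24 h and 20% were chosen with one M2 array of 24 h and read against the other, a check added after the correlations had been seen. Of the 466 probe sets higher at 20% than in M2 replicate 1 of 24 h, the median difference from M2 replicate 2 was 0.08 in replicate 1 of the mutant and 0.44 in replicate 2. Of the 461 lower at 20%, it was -0.05 and -0.23. With the 2 M2 arrays exchanged the values were 0.10 and 0.45 over 474 probe sets and -0.11 and -0.34 over 437. Both mutant arrays therefore lay on the side of the 20% samples in these medians, replicate 2 farther than replicate 1. Whether the mutant cultures, that of replicate 2 above all, were further along in fermentation could not be checked here and was not tested.

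Few genes differed between the strains at 24 h beyond the spread of the arrays. Of 5498 probe sets, 4 were called higher and 3 lower in M2 nsf1∆ at an adjusted p of 0.05 (limma, Benjamini-Hochberg over all 5498), which is 0.0728% and 0.0546%, or 0.127% together. At 20% the same fit called 10 higher and 9 lower (0.346% together), and at 85% it called 272 (4.95%) and 214 (3.89%), or 8.84% together. The count at 85% rests on 3 arrays per strain, which makes smaller differences detectable there. The mean absolute strain difference was 0.191 at 24 h, 0.214 at 20% and 0.228 at 85%. These means hold the noise of the arrays, which weighs more with 2 arrays per strain than with 3, so they are not like for like. At 24 h the 2 M2 arrays differed from each other by a mean of 0.179 and the 2 mutant arrays by 0.247. Neither the counts nor these means measure the size of the strain effect. The median SE of a difference at 24 h was 0.168 and the 95% confidence interval had a median half-width of 0.363, so that small changes were not detectable with 2 arrays per strain. Without adjustment, 328 probe sets were higher (5.97%) and 211 lower (3.84%) at p under 0.05, or 9.8% together. The middle of the distribution stayed close to 0, with a median difference of 0.02 and quartiles of -0.12 and 0.17, and 16 probe sets were higher and 10 lower by at least 1 on the log2 scale.

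**Figure D2:**
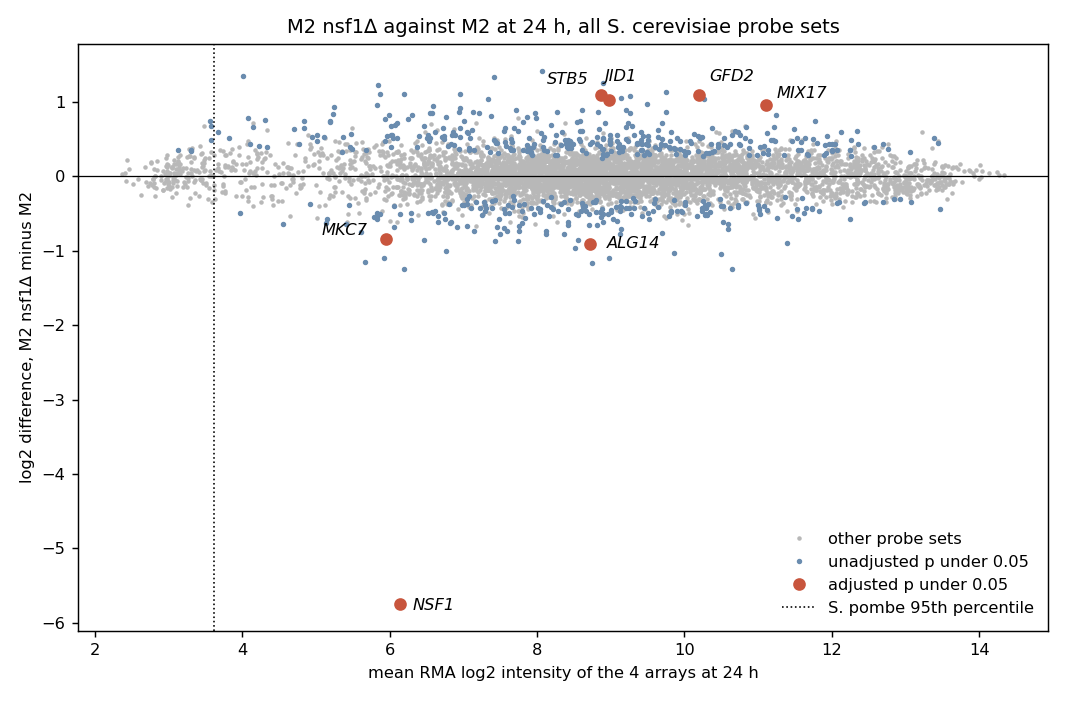
Log2 difference of M2 nsf1∆ from M2 at 24 h (vertical axis) against the mean RMA log2 intensity of the 4 arrays (horizontal axis), 1 point for each of 5498 probe sets. Probe sets with an unadjusted p under 0.05 are in blue, and the 7 past an adjusted p of 0.05 are in red and named. NSF1 lies at -5.75 and the other 6 between -0.91 and 1.09, and the dotted line is the 95th percentile of the S. pombe probe sets.

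Beside NSF1, 6 genes passed the threshold. GFD2, STB5, JID1 and MIX17 rose in M2 nsf1∆, and ALG14 and MKC7 fell. Their known roles lie apart, among them a transcription factor, a mitochondrial protein, an enzyme of protein glycosylation and a protease of the cell surface.

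GFD2, known as a high-copy suppressor of a mutation in the RNA export helicase gene DBP5, read 9.70 and 9.60 in M2 and 10.77 and 10.70 in M2 nsf1∆. Both mutant values lay above both M2 values, and the difference was 1.09 (SE 0.15, limma, adjusted p = 0.0137), or 2.13-fold. STB5, a zinc cluster transcription factor of multidrug resistance and of NADPH supply under oxidative stress, read 8.32 and 8.32 in M2 and 9.30 and 9.51 in the mutant. Its difference was also 1.09 (SE 0.18, adjusted p = 0.0392, limma), and again the strains did not overlap.

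JID1, which encodes a probable co-chaperone with a J domain, read 8.36 and 8.57 in M2 and 9.34 and 9.62 in M2 nsf1∆, a difference of 1.02 (SE 0.17, adjusted p = 0.0392, limma). MIX17, a protein of the mitochondrial intermembrane space, read 10.64 and 10.61 in M2 and 11.55 and 11.60 in the mutant. The replicates of MIX17 lay close together in both strains, and the difference was 0.96 (SE 0.13, adjusted p = 0.0135, limma).

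ALG14, a subunit of the enzyme that adds the second sugar to the lipid carrier of N-glycans, read 9.14 and 9.21 in M2 and 8.36 and 8.18 in M2 nsf1∆. It fell by 0.91 (SE 0.15, adjusted p = 0.041, limma), which is 1.88-fold. MKC7, an aspartyl protease anchored at the cell surface, read 6.41 and 6.34 in M2 and 5.56 and 5.51 in the mutant, and fell by 0.84 (SE 0.13, adjusted p = 0.0224, limma). In each of these 6 genes the 2 mutant arrays stood on one side of the 2 M2 arrays. Such a separation was common at this stage, with 22.4% of all probe sets higher and 19.2% lower in both mutant arrays than in both M2 arrays.

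In all 6 genes the difference at 20% had the opposite sign. GFD2, STB5, JID1 and MIX17, higher in the mutant at 24 h, had differences of -0.58, -0.56, -0.85 and -0.51 at 20%, none of which passed the test. ALG14 rose in the mutant at 20%, by 0.94 (adjusted p = 0.0285, limma), and MKC7 had a difference of 0.30. At 85%, MIX17 fell by 0.49 (adjusted p = 0.0155) and MKC7 rose by 0.37 (adjusted p = 0.0456, limma), both against their direction at 24 h. The change of the strain difference between 24 h and 20% passed the test in all 6 genes, with adjusted p of 0.00336 to 0.00823, and that between 24 h and 85% passed in all 6, with adjusted p of 0.00425 to 0.0189 (limma interaction terms over 5498 probe sets, of which 1.6% and 2.0% passed). The interaction holds the 24 h difference by which these genes were chosen, so its p-values are too small for them. NSF1 was the only probe set called in the same direction at all 3 stages.

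**Figure D3:**
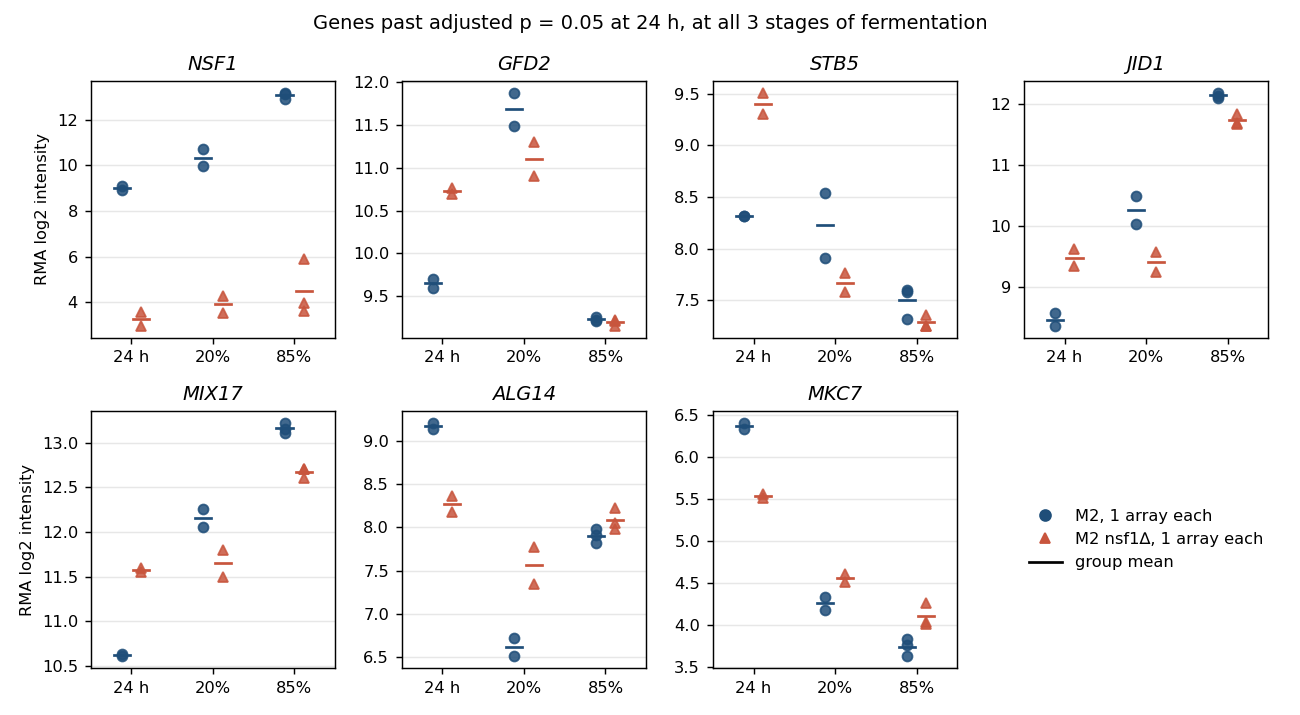
RMA log2 intensity (vertical axes, scaled for each gene) of the 7 genes past an adjusted p of 0.05 at 24 h, at 24 h, 20% and 85% of fermentation (horizontal axes); each point is 1 array, blue circles M2 and red triangles M2 nsf1∆, and bars are group means. Apart from NSF1, each gene shows the strains apart at 24 h and in the opposite order at 20%.

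The levels in the plot of the called genes also show where the mutant stood on the course of M2. In M2, GFD2 rose from a mean of 9.65 at 24 h to 11.68 at 20%, JID1 from 8.46 to 10.26 and MIX17 from 10.62 to 12.16, while ALG14 went from 9.18 to 6.62 and MKC7 from 6.38 to 4.26. The mutant means at 24 h, 10.74 for GFD2, 9.48 for JID1, 11.58 for MIX17, 8.27 for ALG14 and 5.53 for MKC7, lay between these M2 means. This held for 5 of the 6 genes called beside NSF1, and the share over all probe sets was not counted. STB5 was the exception among the 6. Its M2 means were 8.32 at 24 h and 8.23 at 20%, and the mutant mean of 9.41 at 24 h lay outside them, with no array of the later stages as high.

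The calls were lost when most single arrays were left out, while the differences of the 6 genes kept their size. With any 1 of the 4 arrays left out, the difference ranged from 1.04 to 1.14 in GFD2, 0.98 to 1.19 in STB5, 0.88 to 1.16 in JID1, 0.93 to 0.98 in MIX17, -1.0 to -0.82 in ALG14 and -0.88 to -0.81 in MKC7. One strain then has a single array. Without replicate 2 of the mutant, the same fit called 0 probe sets higher and 1 lower, NSF1, and 139 and 67 genes at an unadjusted p under 0.05. Without either M2 array the count was the same 0 and 1, and without replicate 1 of the mutant it was 62 and 23, with all 7 genes among them. The interaction with 20% passed in 4 of the 6 genes without replicate 2 of the mutant, with adjusted p of 0.0147 to 0.0556, and that with 85% in 2 of 6.

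Probe sets that were higher at 24 h were more often lower at 20% than probe sets at large. The comparisons share no array, though cultures may be shared. They come from the same fit, in which the spread of each probe set was pooled over all arrays of the series. A probe set with a small pooled spread passes more readily at every stage, in either direction. This can raise the shares below above those of all probe sets, and by how much was not tested. Of the 328 probe sets higher in the mutant at 24 h at an unadjusted p under 0.05, 96 (29.3%) were lower at 20% by the same measure, against 5.29% of all probe sets, and 16 (4.88%) were higher, against 9.44%, where 14.7% of all probe sets passed in either direction. Of the 211 lower at 24 h, 48 (22.7%) were higher at 20% and 10 (4.74%) were lower. Of the probe sets higher at 24 h, 51 (15.5%) were higher at 85% and 56 (17.1%) lower, against 13.0% and 12.8% of all probe sets (25.8% in either direction). Read from the other side, the shared genes were 3.08% of those higher at 20% and 7.12% of those higher at 85%. The genes in these counts are not independent of each other, and no test was made of the counts.

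Of the 10 sulfur metabolism genes that the study set apart at 85%, 0 passed the test at 24 h (limma), beside 0.127% of all probe sets. At an unadjusted p under 0.05 it was also 0, beside 9.8%. With such shares, 0 of 10 says little about these genes. Their median difference was -0.12, beside 0.02 over all genes. These 10 were chosen by the study on the arrays of 85%, where their median difference was 0.87 and 7 were called higher, beside 4.95% of all probe sets.

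The transporters lay on either side of 0. SUL2, a sulfate permease, read 9.15 and 9.14 in M2 and 9.21 and 8.58 in M2 nsf1∆, with a difference of -0.25 (95% confidence interval -0.81 to 0.31). MMP1, the permease of S-methylmethionine, read 8.91 and 8.44 in M2 and 9.08 and 8.94 in the mutant, with a difference of 0.33 (-0.34 to 1.00). In SUL2 only replicate 2 of the mutant lay clear of the other arrays, and in MMP1 the M2 replicates were farther apart than the strains.

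Of the enzymes that turn sulfate into sulfide, MET14, the APS kinase, read 12.02 and 12.32 in M2 and 12.20 and 11.67 in M2 nsf1∆. MET16, the PAPS reductase, read 10.53 and 10.40 against 10.74 and 9.69. MET5, the catalytic subunit of sulfite reductase, read 11.48 and 11.56 against 11.41 and 10.89. In all 3 genes replicate 2 of the mutant was the lowest of the 4 arrays, and replicate 1 lay closer to the M2 arrays. Their differences were -0.23, -0.25 and -0.36, with 95% confidence intervals of -0.71 to 0.25, -0.87 to 0.37 and -0.89 to 0.16.

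MET8, which makes the siroheme cofactor of sulfite reductase, had the largest difference of the 10, with 10.24 and 10.30 in M2 and 10.95 and 10.51 in the mutant. Its difference was 0.46 (95% confidence interval -0.01 to 0.93, adjusted p = 0.518, limma), and the strains did not overlap. MET17, the sulfhydrylase that makes homocysteine, read 12.51 and 12.67 against 12.77 and 12.55, and MET22, a phosphatase that removes a by-product of the pathway, 11.21 and 11.18 against 11.31 and 10.75. The regulators MET28 (9.14 and 8.75 against 8.95 and 8.82) and MET32 (8.17 and 7.79 against 8.18 and 7.65) overlapped between the strains. MET4, the main activator of the pathway, had a difference of -0.03 (-0.32 to 0.25), and CBF1, which binds beside it, 0.19 (-0.17 to 0.55).

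**Figure D4:**
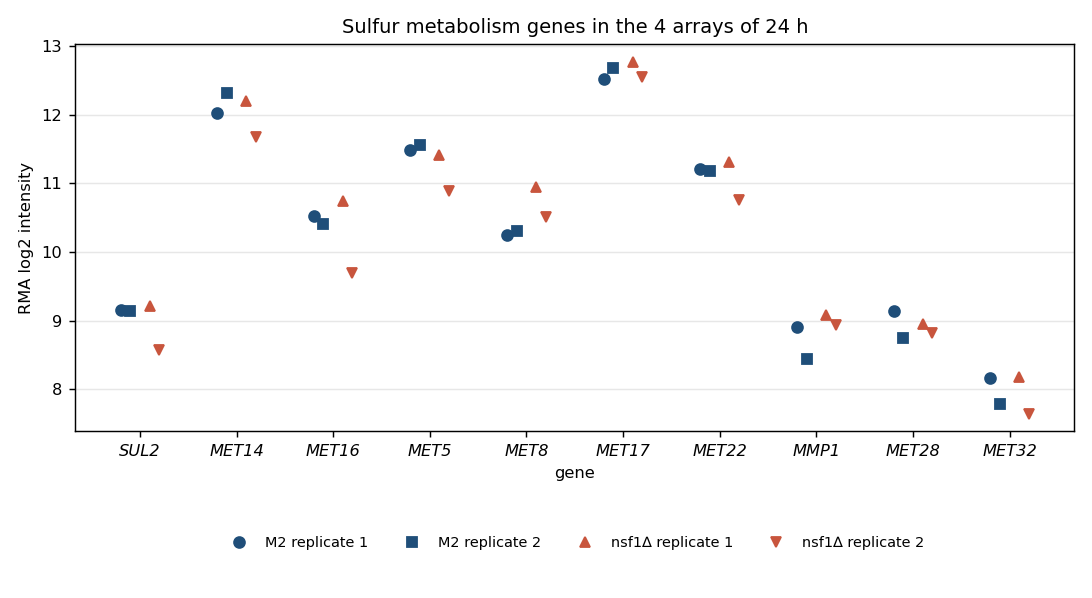
RMA log2 intensity (vertical axis) of the 10 sulfur metabolism genes that the study chose at 85% (horizontal axis), in the 4 arrays of 24 h, M2 in blue and M2 nsf1∆ in red. The strains overlap in 7 genes; MET8 was higher in both mutant arrays, MET5 was lower in both, and MMP1 was higher in both by a small margin.

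The strain difference of MET5 went from -0.36 at 24 h to 1.25 at 85%, where it rose (adjusted p = 0.00358), and this change passed the test (interaction, adjusted p = 0.0257, limma). The study chose these genes on the 85% arrays, whose difference the interaction contains, so this p and those that follow are too small. For MET14 the interaction gave an adjusted p of 0.05, for SUL2 0.0564 and for MET32 0.0813, and the other 6 gave 0.145 to 0.556. In the wider list of 11 genes of sulfate assimilation 0 passed at p under 0.05, beside 9.8% of all probe sets, and the median difference was -0.16. The median of this list was 0.06 in replicate 1 of the mutant and -0.45 in replicate 2, against the M2 mean, so that the arrays of the mutant differed from each other more than the strains did. In M2 the median level of these genes went from 11.19 at 24 h to 9.04 at 20%.

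Genes for the use of other sulfur sources had a median difference of 0.33 over 6 genes measured, and 3 were higher at an unadjusted p under 0.05 (5.97% of all probe sets), but 0 passed after adjustment. JLP1, which releases sulfite from sulfonates, read 6.40 and 6.18 in M2 and 6.63 and 6.97 in M2 nsf1∆, a difference of 0.51 (adjusted p = 0.329, limma). PDC6, a pyruvate decarboxylase low in sulfur amino acids, had a difference of 0.59, FZF1, the activator of the sulfite pump gene, 0.29, and SSU1, the pump itself, 0.37. OPT1, a transporter of glutathione, had -0.37. SAM3, the permease of S-adenosylmethionine, had 0.33 in the list of the methionine cycle, where 1 of 16 genes was higher at p under 0.05. With 1 array left out, the median of the 6 genes for other sulfur sources ranged from 0.222 to 0.435.

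Genes of the cell cycle lay mostly lower in M2 nsf1∆, though 0 passed after adjustment. Of 14 genes of cyclins and their kinase, 6 were lower in M2 nsf1∆ at an unadjusted p under 0.05 and 0 higher, beside 3.84% of all probe sets lower, and the median difference was -0.27. CLN1, a G1 cyclin, read 6.29 and 6.67 in M2 and 5.52 and 5.24 in the mutant, a difference of -1.10 (SE 0.24, adjusted p = 0.0855, limma). CLN2, its partner, read 7.75 and 7.97 against 7.10 and 6.87. Both G1 cyclins lay lower in both mutant arrays. CLB1, a mitotic cyclin, had a difference of -0.78 (adjusted p = 0.13) and CLB6, an S phase cyclin, of -0.75 (adjusted p = 0.327, limma).

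Of 27 genes of DNA replication, 10 were lower and 0 higher at p under 0.05, beside 3.84% and 5.97% of all probe sets, and the median was -0.30. POL30, the sliding clamp of DNA polymerases, read 10.93 and 11.11 in M2 and 10.35 and 9.61 in M2 nsf1∆, with a difference of -1.04 (SE 0.21, adjusted p = 0.0818, limma). RNR1, the large subunit of ribonucleotide reductase, read 9.13 and 9.52 against 8.54 and 7.76. CDC45, of the replicative helicase, had a difference of -0.73 and POL1, of the priming polymerase, of -0.65. RNR3, the subunit used after DNA damage, was the opposite extreme of the list at 0.72 (adjusted p = 0.522). The 9 histone genes measured all had negative differences, from -0.53 to -0.12, and 7 lay lower in both mutant arrays, beside 19.2% of all probe sets. HTB2 had -0.53 and HTA2 -0.43.

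Both mutant arrays carried the pattern of the cell cycle genes, with list medians of -0.20 and -0.34 for cyclins, -0.18 and -0.35 for DNA replication and -0.22 and -0.19 for histones in replicates 1 and 2. With 1 array left out, the list medians ranged from -0.339 to -0.201 for cyclins and from -0.353 to -0.176 for DNA replication. For histones they ranged from -0.215 to -0.165. At 20% the medians were 0.13, 0.26 and 0.09. For CLN1, CLN2, CLB1, POL30 and CDC45 the strain difference changed between 24 h and 20% with adjusted p of 0.00823, 0.0129, 0.0221, 0.0445 and 0.0282 (limma interaction terms). For RNR1, POL1, CLB6 and RNR3 it did not pass, with adjusted p of 0.0679, 0.117, 0.379 and 0.731. These genes were named for their differences at 24 h, which the interaction contains, so its p-values are too small for them.

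The machinery that makes proteins had small negative differences. Of 128 genes of cytosolic ribosomal proteins, 14 were lower at p under 0.05 and 94 lay lower in both mutant arrays, with 0 on the other side by either measure and a median of -0.16, beside 3.84% and 19.2% of all probe sets. The median of this list ranged from -0.227 to -0.097 with 1 array left out. It was -0.11 at 20% and -0.25 at 85%. At 85%, 16 members were called lower and 1 higher, beside 3.89% and 4.95% of all probe sets. RPL4B read 8.49 and 9.02 in M2 and 8.11 and 7.84 in M2 nsf1∆, and RPL18B 11.05 and 10.83 against 10.66 and 9.80. Their differences were -0.78 and -0.71, with adjusted p of 0.235 and 0.309 (limma). Probe sets of duplicated ribosomal protein genes can share signal, which makes single members uncertain.

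Ribosome biogenesis, the assembly of new ribosomes in the nucleolus, had a median of -0.31 over 83 genes. At p under 0.05, 12 were lower and 0 higher, beside 3.84% and 5.97% of all probe sets. RRP12, an export factor of ribosomal subunits, read 8.89 and 9.39 in M2 and 8.90 and 8.05 in the mutant, and UTP20, a component of the processome, 9.12 and 9.15 against 8.76 and 8.41. The subunits of RNA polymerases I and III had a median of -0.32 over 20 genes, with RPA43 at -0.77. Translation factors and tRNA synthetases had -0.17 over 39 genes, with TIF11, the initiation factor eIF1A, at -0.49 (adjusted p = 0.247). These 3 lists lay farther from 0 in replicate 2 of the mutant. Its medians were -0.55, -0.52 and -0.28, while those of replicate 1 were -0.06, -0.07 and -0.08. The medians of the 3 lists were 0.01, 0.09 and 0.01 at 20%, and -0.06, -0.06 and -0.12 at 85%. M2 replicate 2 also lay above M2 replicate 1 in ribosome biogenesis, by a median of 0.17.

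**Figure D5:**
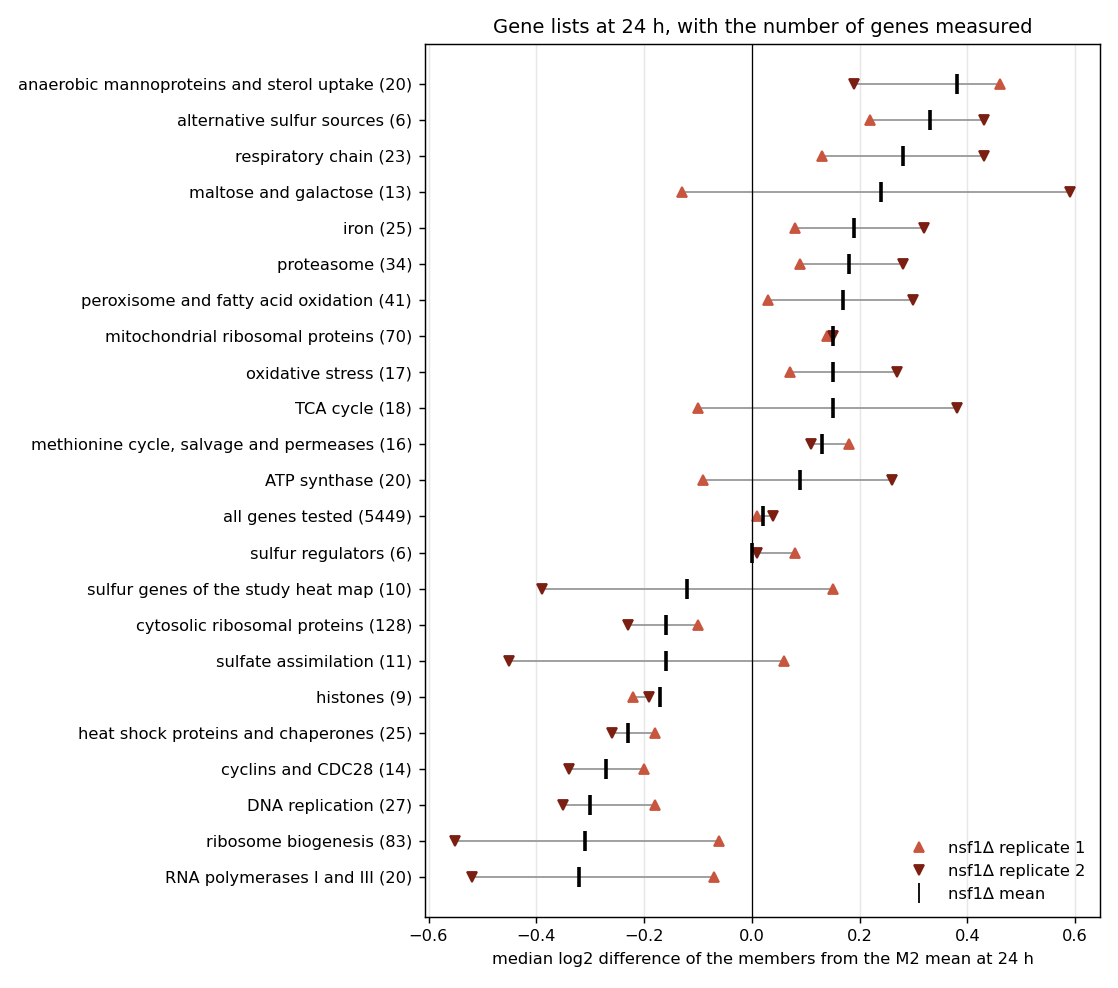
Median log2 difference of the members of 22 gene lists, and of all genes, from the M2 mean at 24 h (horizontal axis), for replicate 1 (upward triangles) and replicate 2 (downward triangles) of M2 nsf1∆ and for their mean (black ticks). The number of genes measured stands beside each list (vertical axis). Replicate 2 lies farther from 0 in most lists, as for ribosome biogenesis with -0.55 against -0.06. Of all 64 lists with genes measured, the medians of the 2 mutant arrays had one sign in 40, ribosome biogenesis among them.

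The respiratory chain lay on the upper side. Of 23 genes measured, 11 were higher in M2 nsf1∆ and 0 lower at an unadjusted p under 0.05, beside 5.97% of all probe sets higher. In both mutant arrays 19 lay higher, beside 22.4% of all probe sets, and the median was 0.28. None passed after adjustment. NDE2, an external NADH dehydrogenase of mitochondria, read 8.64 and 8.88 in M2 and 9.24 and 10.08 in the mutant, with a difference of 0.89 (SE 0.29, adjusted p = 0.309, limma). CYC1, cytochrome c, read 11.95 and 12.07 against 12.33 and 12.67, and QCR2, of the cytochrome bc1 complex, 10.89 and 10.96 against 11.19 and 11.64. NDI1, the internal NADH dehydrogenase, had 0.58. The medians of the 2 mutant arrays were 0.13 and 0.43, and the list median ranged from 0.128 to 0.426 with 1 array left out. At 20% the median of the list was -0.33 and at 85% -0.25.

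Genes of the mitochondrial ribosome had a median of 0.15 over 70 genes, and 42 lay higher in both mutant arrays against 1 lower, beside 22.4% and 19.2% of all probe sets. RSM28, a protein of its small subunit, read 10.40 and 10.33 in M2 and 10.80 and 11.03 in M2 nsf1∆, with a difference of 0.55 (SE 0.12, adjusted p = 0.0855, limma), and MRPS35 had 0.43. This list moved alike in the 2 mutant arrays, with medians of 0.14 and 0.15. ATP synthase (median 0.09 over 20 genes, 0 with a p under 0.05) and the TCA cycle (0.15 over 18 genes, 1 higher, beside 5.97% of all probe sets) had medians below 0 in replicate 1, -0.09 and -0.10. The genes of mitochondrial DNA could not be read, since 0 of 18 listed were among the probe sets tested.

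The 14 genes of the glyoxylate cycle and gluconeogenesis had a median of 0.12, which ranged from -0.045 to 0.376 with 1 array left out. At p under 0.05, 3 were higher and 0 lower, beside 5.97% and 3.84% of all probe sets. IDP2 had the largest difference of this list, 0.71 (adjusted p = 0.498, limma). ICL1, MLS1 and CIT2, enzymes of the glyoxylate cycle and its supply, had differences of -0.04, 0.10 and -0.14. Of the list of peroxisome and fatty acid oxidation, with a median of 0.17 over 41 genes, 5 were higher and 0 lower at p under 0.05. The shares of all probe sets were again 5.97% and 3.84%. The list medians were 0.03 in replicate 1 of the mutant and 0.30 in replicate 2. CTA1, the peroxisomal catalase, read 8.75 and 8.69 in M2 and 9.15 and 10.44 in M2 nsf1∆. CRC1, the carnitine carrier of mitochondria, read 8.67 and 8.55 against 9.14 and 10.18, with a difference of 1.05 (SE 0.24, adjusted p = 0.112, limma). Of gluconeogenesis, FBP1 was even between the mutant arrays, with 6.65 and 6.72 against 7.19 and 7.24, while PCK1, of the same path, read 6.57 and 6.40 against 6.60 and 7.38. In M2 the means of CTA1, CRC1, FBP1 and PCK1 at 20% were 11.40, 11.63, 8.51 and 8.13. DAK2, a dihydroxyacetone kinase, had a difference of 0.87 (adjusted p = 0.247), and glycolysis itself had a median of 0.05 over 22 genes with 0 at a p under 0.05.

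Among the sugar transporters, HXT17 had the largest positive difference of all probe sets, 1.42 (SE 0.33, adjusted p = 0.112, limma), with 7.23 and 7.48 in M2 and 8.03 and 9.53 in M2 nsf1∆. Its other probe set gave 1.11, and both are of classes that can read relatives of the gene in the hexose transporter family, so the gene cannot be named with certainty. At 85% the first probe set rose by 1.08 (adjusted p = 0.0288). HXT1, the low-affinity transporter of high glucose, had -0.47 (adjusted p = 0.559). GAL10, of galactose use, read 5.60 and 5.79 against 6.01 and 6.72. In the list of maltose and galactose genes the mutant arrays had medians of -0.13 and 0.59, on opposite sides of 0.

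Metal uptake gave several of the larger single differences. Of 25 genes of iron supply, 6 were higher and 0 lower at p under 0.05, beside 5.97% and 3.84% of all probe sets, with a median of 0.19. HMX1, a heme oxygenase that releases iron, read 9.60 and 9.89 in M2 and 10.59 and 10.97 in M2 nsf1∆, a difference of 1.04 (SE 0.20, adjusted p = 0.0785, limma). FTR1 and FET3, the permease and the oxidase of the high-affinity iron uptake complex, read 8.82 and 8.86 against 9.59 and 9.78 and 7.06 and 6.88 against 7.73 and 7.82. CCC2, the copper pump that loads Fet3p, read 7.51 and 7.59 against 8.25 and 8.56. All 4 stood clear of M2 in both mutant arrays, yet with adjusted p of 0.0785 to 0.288 (limma). At 20% HMX1 fell by 1.07 in the mutant (adjusted p = 0.0473). The median of the 25 iron genes ranged from 0.056 to 0.317 with 1 array left out.

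PHO8, the vacuolar alkaline phosphatase, read 9.03 and 8.98 in M2 and 9.60 and 10.35 in M2 nsf1∆, a difference of 0.97 that ranged from 0.59 to 1.34 with 1 array left out. PHO84, a phosphate permease, read 5.95 and 6.31 against 6.38 and 7.22, and its difference of 0.67 ranged from 0.25 to 1.09. The phosphate list had medians of 0.04 and 0.01 in the 2 mutant arrays. IZH1, a membrane protein of zinc balance, read 11.98 and 12.09 in M2 and 12.75 and 12.54 in the mutant, and ZRT1, the high-affinity zinc transporter, 10.80 and 10.87 against 10.49 and 9.94. Their differences were 0.61 and -0.62, with adjusted p of 0.0855 and 0.385 (limma).

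Stress genes went in both directions. Heat shock proteins and chaperones had a median of -0.23 over 25 genes, with 4 lower and 0 higher at p under 0.05, beside 3.84% and 5.97% of all probe sets. SSA2, a cytosolic Hsp70, read 12.45 and 12.62 in M2 and 12.24 and 11.68 in M2 nsf1∆, and YDJ1, its Hsp40 partner, 11.32 and 11.25 against 11.10 and 10.43. HSP30, a plasma membrane protein of stressed cells, read 12.41 and 11.24 against 11.64 and 10.23, where M2 replicate 2 lay below the first mutant array. M2 replicate 2 was the lower M2 array in this list, by a median of 0.24, which was as large as the strain difference. With 1 array left out, the median of these genes ranged from -0.384 to -0.114.

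Oxidative stress genes had a median of 0.15 over 17 genes, 11 of them higher in both mutant arrays and 0 lower, beside 22.4% and 19.2% of all probe sets. At p under 0.05, 3 were higher, beside 5.97% of all probe sets, namely CTA1 (1.08), GPX2 (0.40) and CTT1 (0.33). The median of the list ranged from 0.07 to 0.27 with 1 array left out. The genes that follow belong to other lists. At p under 0.05, 2 of 12 glutathione genes and 2 of 13 genes of hydrophilins and late osmotic stress were higher, and 0 lower. Of 23 genes of drug export and weak acids, 2 were higher and 2 lower. The shares of all probe sets were 5.97% and 3.84%. GTT1 and GTT2, the glutathione transferases, read 10.67 and 10.64 against 11.05 and 11.20 and 8.37 and 8.17 against 8.75 and 9.02, with differences of 0.47 and 0.61 and adjusted p of 0.177 and 0.0934 (limma). GRE1, a hydrophilin of osmotic stress, had a difference of 1.04 that rested on replicate 2 (6.80 and 6.81 against 7.32 and 8.38). PDR16, a phospholipid transfer protein of drug resistance, came next after the called genes in the whole table. It read 10.83 and 10.82 in M2 and 11.66 and 11.66 in the mutant, with a difference of 0.83 (SE 0.15, adjusted p = 0.0527, limma), and fell by 0.73 at 85% (adjusted p = 0.00435). TPO2, a polyamine exporter, read 10.94 and 10.88 against 10.59 and 9.94, a difference of -0.64 that ranged from -0.97 to -0.32 with 1 array left out. YRO2, a membrane protein of acid stress, read 10.73 and 9.42 against 9.61 and 9.02, where the strains overlapped, and its difference of -0.76 ranged from -1.41 to -0.10.

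Anaerobic cell wall mannoproteins and sterol uptake genes, which yeast turns on when oxygen is gone, had a median of 0.38 over 20 genes, with 13 higher in both mutant arrays and 4 higher at p under 0.05, beside 22.4% and 5.97% of all probe sets. Here replicate 1 of the mutant was the farther one, at 0.46 against 0.19. AUS1, a sterol importer, read 6.55 and 7.09 in M2 and 7.89 and 7.16 in M2 nsf1∆, and HEM13, of heme synthesis, 10.22 and 10.60 against 11.33 and 10.68. UPC2, the activator of sterol genes, had -0.46. The differences of AUS1 and HEM13 were 0.71 and 0.59, with adjusted p of 0.517 and 0.603 (limma). The list had medians of 0.48 at 20% and 0.51 at 85%, with 0 members called at 20%, and 6 called higher and 1 lower at 85%. Its median at 24 h ranged from 0.194 to 0.457 with 1 array left out.

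Genes known for higher expression in haploid cells were read beside the label of both strains as diploid. Of these 12 markers 0 were called, beside 0.127% of all probe sets. Their summed log2 levels were 63.9 and 64.2 in M2 and 65.1 and 66.4 in M2 nsf1∆. STE18, the gamma subunit of the pheromone G protein, was below background in all 4 arrays, and HO and STE3 read between 3.60 and 4.06. The other markers were not near background throughout. STE4, the beta subunit of the same G protein, read 8.21 and 8.10 in M2 and 8.05 and 8.37 in M2 nsf1∆, the a-factor gene MFA1 6.79 and 6.71 against 6.51 and 7.03, the receptor gene STE2 5.91 and 6.00 against 6.09 and 6.45, and GPA1, the alpha subunit, 5.56 and 5.66 against 5.42 and 5.80. The markers were therefore not all at background in either strain, and they do not settle the ploidy of the cultures. FAR1, which arrests the cell cycle under pheromone, had the largest difference of these markers, with 5.83 and 5.95 against 6.81 and 6.63 (0.83, SE 0.16, adjusted p = 0.0785, limma), and RME1, a repressor of meiosis, had 0.58. The 10 markers of sporulation summed to 52.2 and 53.3 in M2 and 53.0 and 56.8 in the mutant, with 0 called. In the wider list of 30 genes of sporulation and meiosis 7 were higher at p under 0.05 (5.97% of all probe sets), among them RIM4 (0.86) and SPR28 (0.76). The median of this list ranged from 0.084 to 0.361 with 1 array left out. The part of these genes in the other differences was not tested.

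The genes around NSF1 and the chromosomes were looked at because the deletion replaces a piece of chromosome XVI. Of the 8 genes beside NSF1, 0 were called, where 0.127% of all probe sets were. NEW1 had the lowest difference, -0.50 (adjusted p = 0.51), and ALG5 the highest, 0.37 (adjusted p = 0.512, limma). The median difference of the 16 chromosomes ranged from -0.013 to 0.055 and that of the 32 arms from -0.051 to 0.08, beside a median of 0.02 over all probe sets.

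Neighbouring genes with like differences were sought as runs of genes next to each other among those tested, each with a difference of at least 0.7 in the same direction and an unadjusted p under 0.05, and 6 runs were found. They were named after their values had been seen. BSC4, of unknown function, and ALP1, an amino acid permease gene beside it on chromosome XIV, had 1.35 (adjusted p = 0.0855) and 1.34 (adjusted p = 0.325, limma). BSC4 read 3.61 and 3.07 in M2, below background, and 4.08 and 5.30 in M2 nsf1∆, at least 1.96-fold higher than that bound, and ALP1 read 6.64 and 6.85 against 7.32 and 8.87. At 20% their differences were -1.32 and -1.30, in the other direction. AQY1, a spore aquaporin, and HPA2, an acetyltransferase, are neighbours on chromosome XVI and had 1.10 and 1.26 at 24 h and -0.85 and -1.05 at 20%. HXT17 and AIF1, a mitochondrial cell death factor, formed a run on chromosome XIV, and CLB1 and CLB6 one on chromosome VII.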

How the data were processed

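Total RNA of M2 and M2 nsf1∆ was hybridised to Affymetrix Yeast Genome 2.0 arrays, 1 sample per array. The deposited table holds RMA log2 intensities computed by the authors. RMA corrects background, quantile-normalizes all arrays together and summarizes each probe set. The version is not given in the sources used here. Quantile normalization gives all arrays one distribution, so a change shared by most genes would not be seen, and differences of genes near background are compressed.

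Samples were grouped by their labels. Probe sets were named from the platform annotation, with symbols updated through RefSeq gene IDs (assembly R64, all 5498 matched). The 3470 probe sets with no gene named, 1746 of S. pombe, 213 controls and 1 of several genes were left out. S. pombe probe sets served as background (95th percentile 3.62 over all arrays). All 14 arrays entered one limma 3.58.1 fit (R 4.3.3) with a mean for each of 6 groups (residual degrees of freedom 8, prior 5.14), since 2 against 2 arrays leave too few alone. The strains were compared at each stage and interaction terms compared those differences between stages, with Benjamini-Hochberg adjustment over 5498 probe sets and a threshold of 0.05. Exact permutation of 2 against 2 arrays cannot go below a two-sided p of 0.333. The number of arrays limits the precision. Scan dates were not used here. The fit was also run on simulated data with noise drawn independently for each probe set and array. That run held no shift of a whole array, so it cannot speak to the effect of replicate 2 of the mutant. Python 3.11.15, numpy 2.4.6, pandas 2.3.3, scipy 1.17.1 and matplotlib 3.10.9 were used for the rest.

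The comparison, its members and the 65 gene lists were chosen with earlier results of these data known, and the lists carry no test. Named were NSF1, up to 12 rises and 12 falls that passed with strains apart and above background, genes called alike at all 3 stages, the 10 sulfur genes of the study, genes beside NSF1 and, from a list described, at most 4 members in each direction. Where a gene has several probe sets, the most specific is named. Neighbouring runs lie outside this rule. Other settings tried were a block on replicate number, 2 filters on dim probe sets, no filter on species, median scaling, a second quantile normalization, a variance trend with intensity, weights on arrays, a fit of the 24 h arrays by themselves, the methods' t-test, each array left out in turn, unadjusted p, and a minimum 2-fold change. Promoter motifs were not analysed here.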

Additional observations from a re-analysis of the deposited data

Results flagged for a closer look

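The values here are changes of the strain difference (M2 nsf1∆ minus M2, log2 scale) from 24 h to a later stage, each past an adjusted p of 0.05 in the limma interaction test. Groups of 2 or 3 arrays are too small for an outlier test. Every change holds the 24 h difference itself, and replicate 2 of the mutant at 24 h stood apart. The numbers of probe sets past the test were 88 for 20% and 110 for 85%, and without that array 14 and 11.

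Of the genes called at 24 h, the difference changed from 24 h to 20% and to 85% by -1.67 and -1.13 in GFD2, by -1.64 and -1.30 in STB5, by -1.86 and -1.43 in JID1 and by -1.47 and -1.45 in MIX17. The changes were 1.85 and 1.09 in ALG14 and 1.15 and 1.21 in MKC7.

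Among genes of the cell cycle, from 24 h to 20% and to 85% the changes were 2.19 and 1.58 in CLN1, 1.59 and 1.36 in CLN2, 1.41 and 1.47 in CLB1, 1.30 and 1.33 in POL30, and 1.41 and 1.40 in CDC45. The histone genes HTB2 and HTA2 changed by 1.60 and 1.36 to 20%. MET5, of sulfate assimilation, changed by 1.62 to 85%.

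Among genes of mitochondria, QCR2 changed by -0.96 to 20% and -0.99 to 85%, RSM28 by -0.84 and -0.96, CYC1 by -1.20 to 85% and CRC1 by -2.05 to 20%. Among metal and phosphate genes, HMX1 changed by -2.10 to 20% and -1.33 to 85%, CCC2 by -1.60 and -1.23, FET3 by -1.62 to 20%, PHO8 by -1.95 and PHO84 by -1.90 to 20%, and IZH1 by -1.15 to 85%.

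BSC4 changed by -2.67 to 20% and -1.87 to 85%, HPA2 by -2.31 and -1.85, AQY1 by -1.95 to 20% and AIF1 by -1.04 to 20%. BSC4 was below background in M2 at 24 h, where its difference is only bounded, at 0.97 or more, so its changes are not exact. PDR16 changed by -1.23 and -1.57, GTT2 by -0.80 to 85%, FAR1 by -1.64 to 20%, RME1 by -1.20 to 85% and SPR28 by -1.53 to 20%.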

How the results depend on the processing

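The count of probe sets at 24 h, 4 higher and 3 lower, moved with most settings. It was 0 and 1 with the replicate number as a block, 0 and 1 with the 24 h arrays alone, and 0 and 0 by the methods' t-test after Benjamini-Hochberg, with 95 and 74 at its unadjusted p under 0.05. It was 328 and 211 at limma's unadjusted p. Leaving out 1 array gave 0 to 62 higher and 1 to 23 lower. On the lower side alone it was 1 without the dimmest 25% of probe sets, a filter that NSF1 itself did not pass, 1 with an intensity trend and 1 with a fold change of at least 2. NSF1 stayed called under every other limma setting, and by the methods' t-test its difference of -5.75 had an adjusted p of 0.89. Median scaling and a second quantile normalization kept the same 7 calls. The range of chromosome medians was 0.035 to 0.089 with 1 array left out.

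The labels do not say whether the replicate numbers pair the arrays. Same-numbered arrays deviated from their group means with a correlation of -0.134 at 24 h, -0.106 at 20% and 0.027 to 0.574 at 85%. With 2 arrays in a group the deviations mirror each other, so 24 h and 20% give a single value each. These values do not decide the pairing. With the mutant's numbers crossed at 24 h and 20%, added after seeing the data, the block gave 18 higher and 7 lower.

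Sulfur genes with differences near 0 turned sign when 1 array was left out. Their lowest and highest values were -0.50 and 0.03 for MET14, -0.78 and 0.28 for MET16, -0.04 and 0.18 for MET17, -0.45 and 0.12 for MET22, -0.26 and 0.14 for MET28, -0.34 and 0.20 for MET32, -0.56 and 0.06 for SUL2, and -0.11 and 0.05 for MET4. With 2 arrays per strain, differences within the spread of replicates could not be told from 0.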
